A study of Homo sapiens with 6 samples.

Results

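The collagen VI genes COL6A1, COL6A2 and COL6A3 were examined through the H3K27ac peaks of 2 hg19 windows. The first runs from 238000000 to 238450000 on chromosome 2 and holds COL6A3 with sequence on both sides of it. The second runs from 47360000 to 47580000 on chromosome 21 and holds COL6A1, COL6A2 and the stretch between them. Of 87864 peaks in the 2 H3K27ac lists of the series, 55 overlapped these windows, 51 of 56420 M2 peaks and 4 of 31444 THP-1 peaks. The peaks were selected on their position alone, but the genes and windows were chosen with values of these same lists in view, so the peak numbers, heights and widths below are descriptions, and no difference was tested.

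The study compared macrophages of the M2 type, as cells of alternative activation are called, with THP-1, a line grown from a human monocytic leukaemia. Both were grown in RPMI medium with fetal bovine serum and antibiotics, and no other treatment of either is given in the labels. The labels do not say from which cells the macrophages were made, nor how. H3K27ac was profiled in 1 library per cell type, so no value has a replicate check and no p-value is given. H3K27ac is the acetylated form of histone H3 found at active promoters and enhancers.

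Collagen VI is an extracellular matrix protein built from the products of the 3 genes. The alpha 1, alpha 2 and alpha 3 chains join in a single triple helix inside the cell, and the assembled units form beaded microfilaments around cells after secretion. Fibroblasts and other mesenchymal cells are its main makers, and macrophages have been described to secrete it as well. Loss or defects of any of the chains cause the Bethlem and Ullrich muscle disorders. The carboxy-terminal piece cut from the alpha 3 chain is known as endotrophin.

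The promoters of the genes differ in base composition, and they are shown because H3K27ac marks active promoters. RefSeq promoter windows of GRCh38.p14, 250 bases before the start site and 50 from it, were at hand for 2 of the 3 genes, COL6A2 at chr21:46097862-46098161 on the plus strand and COL6A3 at chr2:237414115-237414414 on the minus strand. They are in another build than the peaks, so no peak was placed on them. Capitals mark matches, on either strand, to the GC box, searched as GGGCGG, and to the TATA box, searched as the letters TATAAA.
COL6A2: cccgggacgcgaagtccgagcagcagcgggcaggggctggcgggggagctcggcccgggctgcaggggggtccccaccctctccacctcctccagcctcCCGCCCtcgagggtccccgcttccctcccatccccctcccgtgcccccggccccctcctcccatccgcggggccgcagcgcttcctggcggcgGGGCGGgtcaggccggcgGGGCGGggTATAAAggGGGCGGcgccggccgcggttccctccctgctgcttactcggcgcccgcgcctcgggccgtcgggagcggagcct
COL6A3: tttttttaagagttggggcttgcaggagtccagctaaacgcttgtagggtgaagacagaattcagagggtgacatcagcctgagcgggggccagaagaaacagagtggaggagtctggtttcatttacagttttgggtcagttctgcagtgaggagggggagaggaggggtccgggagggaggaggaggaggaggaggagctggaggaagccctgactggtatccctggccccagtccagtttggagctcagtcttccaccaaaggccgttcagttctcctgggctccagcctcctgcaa
The COL6A2 promoter was 79.3% G and C with 36 CpG dinucleotides, above 96.7% of the 35116 promoters in the table by base content. It held 4 GC boxes, a motif present in 44.95% of all promoters, and 1 TATA box, present in 11.5%. The TATA box began 32 bases upstream of the start site, and the GC boxes began 151 (on the opposite strand), 58, 40 and 24 bases upstream. None of these matches overlapped another. The COL6A2 window shares 34 bases with the promoter window of COL6A2-DT, the divergent transcript on the opposite strand. The COL6A3 promoter was 56.3% G and C with 4 CpG dinucleotides, against medians of 58.7% and 14 over all promoters. It held neither of these motifs. Both strands of both promoters were also searched for the CCAAT box, as those letters (present in 34.6% of all promoters). The AP-1 motif was searched as TGANTCA (7.71%), the TEAD motif as GGAATG (14.03%) and the E-box as CANNTG (68.7%), and none of these letters occurred in either window.

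Called H3K27ac peaks covered more of both windows in M2 macrophages than in THP-1 cells. In the COL6A3 window 37 M2 peaks extended over 45.05 kb, 6.03 times the 7.48 kb of the 3 THP-1 peaks. In the COL6A1 and COL6A2 window 14 M2 peaks extended over 18.4 kb, 51.6 times the 0.356 kb of the only THP-1 peak, so that this ratio rests on 1 peak. Over the whole lists the ratio of covered sequence was 2.19. With lists of equal length, made by keeping the 31444 M2 peaks of highest -log10 q, the ratio was 4.17 in the COL6A3 window, 43.5 in the COL6A1 and COL6A2 window and 1.70 over the whole lists. These ratios compare the extent of peaks called separately in each library, not the amount of the mark. Fewer cells carrying the mark and less of it per cell cannot be told apart in bulk libraries. Both windows together held 63.4 kb of M2 peak sequence and 7.83 kb of THP-1 peak sequence.

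Of the 51 M2 peaks, 48 overlapped no THP-1 peak, which is 94.1% (exact 95% binomial interval 83.8 to 98.8, counting error only). The interval treats the peaks as independent, but they are neighbours in 2 windows, and joining those within 1000 bp left 36. It may therefore be too narrow. Over the whole M2 list 63.0% of peaks had no THP-1 counterpart. The M2-only peaks were 35 of 37 in the COL6A3 window and 13 of 14 in the COL6A1 and COL6A2 window. All 4 THP-1 peaks lay on M2 peaks. Over the whole THP-1 list 24.7% had no M2 counterpart. With 4 peaks the interval for the members was 0 to 60.2%, which includes the share of the list. A median of 62230 bp separated an M2 member from the nearest THP-1 peak, against 3969 bp over the whole M2 list.

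The windows were set beside all stretches of the same length that tile the chromosomes and hold a peak of either list. By M2 coverage the COL6A3 window stood above 98.0% of 5335 tiles, whose median was 7.73 kb, and by THP-1 coverage above 76.4%, with a median of 2.91 kb. Among the 108 tiles with at least as much M2 sequence, 16 held no more THP-1 sequence than this window. At a -log10 q of at least 10 it stood above 95.9% of tiles by M2 coverage and above 85.1% by THP-1 coverage. Of the 198 tiles then at least as covered in M2, 56 held no more THP-1 sequence. In the full lists the COL6A1 and COL6A2 window stood above 93.1% of 9375 tiles by M2 coverage and above 21.9% by THP-1 coverage. Only 6 of the 647 tiles with at least as much M2 sequence held no more THP-1 sequence. At the stricter threshold 27 of 568 did. These ranks describe windows picked for such values and test nothing.

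The COL6A1 and COL6A2 window was led by a single broad M2 peak in the stretch between the genes. It spanned 47478099 to 47482610 (4512 bp) and reached 34.8-fold enrichment, the authors' ratio of the summit over its local background. That was rank 11 of 56420 M2 peaks by fold, and 35580 bp separated it from the nearest THP-1 peak. The number of sequenced fragments over a summit, which the lists do not give but which could be recovered from fold enrichment and p-value, was 164 for this peak, against a median of 39 in the M2 list. Its recovered background was 1.55 times the lowest of the list. This peak alone made up 24.6% of the M2 sequence in the window.

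**Figure D1:**
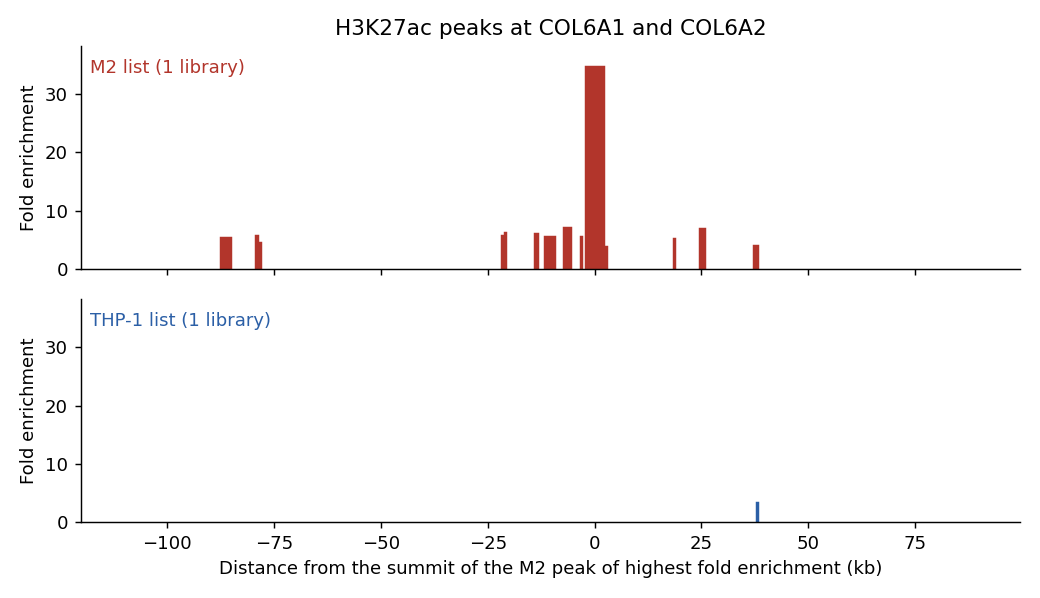
Fold enrichment of each H3K27ac peak (y axis) against distance in kb from the summit of the strongest M2 peak (x axis) over the COL6A1 and COL6A2 window, with the M2 list above and the THP-1 list below; bar widths are peak widths, and each list is scaled to its own background. The 14 M2 peaks form 3 groups around the 34.8-fold peak, and the 1 THP-1 peak lies under the last M2 peak.

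The other 13 M2 peaks of that window were much lower, between 3.98 and 7.22-fold, with a median of 5.66. Peaks of the M2 list no more than 12.5 kb apart formed 3 groups. The middle group, from 47458469 to 47483161, held 8 peaks and 11.7 kb of covered sequence, 63.9% of the M2 sequence in the window, and no THP-1 peak. It included the 34.8-fold peak, the 7.22-fold peak at 47472859 to 47474753, the 6.38-fold peak at 47459126 to 47459582, the 6.14-fold peak at 47466165 to 47467148 and the second widest peak of the window (2503 bp at 47468580 to 47471082). Of the 25897 such groups in the M2 list, 684 held at least 8 peaks.

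At COL6A1, the gene of the alpha 1 chain, 3 M2 peaks and no THP-1 peak were called. They covered 3.50 kb of the 40 kb set around the gene. The widest spanned 2392 bp at 47392720 to 47395111 with 5.40-fold enrichment. The other two, at 47400827 to 47401425 (5.79-fold) and 47401778 to 47402288 (4.64-fold), lay 352 bp apart. Their summits held 63, 47 and 28 fragments. From 47402288 no M2 peak followed for 56180 bp, until the middle group began. In the THP-1 list the stretch without a peak that holds COL6A1 was 278.3 kb long and ended at 47518191.

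At COL6A2, the gene of the alpha 2 chain, each list had 1 peak, and they overlapped. The M2 peak spanned 1274 bp (47517364 to 47518637) and the THP-1 peak 356 bp (47518191 to 47518546), with summits 6 bp apart. Fold enrichment was 4.11 in M2 and 3.48 in THP-1 cells, and 72 fragments lay over the M2 summit against 31 over the THP-1 summit. Divided by the lowest background of its own library, the pileup was 31.3 in M2 and 17.6 in THP-1, a ratio of 1.78. Local background at this site was 7.23 times the lowest in M2, above the M2 list median of 2.41, and 4.64 times the lowest in THP-1, below the THP-1 list median of 5.04. Between this peak and the middle group lay 2 M2-only peaks, at 47498583 to 47499099 (5.25-fold) and 47504691 to 47506034 (6.98-fold). No peak of either list was called in the window beyond 47518637.

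At COL6A3, the gene of the alpha 3 chain, no peak of either list was called in the 110 kb set around the gene itself. The M2 peaks flanked it on both sides of a stretch of 129.5 kb without a peak, from 238200751 to 238330273. Of 56397 stretches between M2 peaks, 7.87% were at least that long. The first peak above it began 273 bp beyond the bounds set around the gene, at 238330273, with 4.82-fold enrichment and 16 fragments over the summit. In the THP-1 list the stretch without a peak was 405.9 kb long. The window is longer than the gene. In RefSeq order the next protein-coding gene below COL6A3 is COPS8, a subunit of the COP9 signalosome. The next above COL6A3 is MLPH, the melanosome transport protein melanophilin. No bounds were set around these neighbours, and the window may hold parts of them. All peaks of the window, that of highest fold included, lay outside the bounds set around COL6A3. None was assigned to COL6A3 or to a neighbour, and which gene they act on was not tested.

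**Figure D2:**
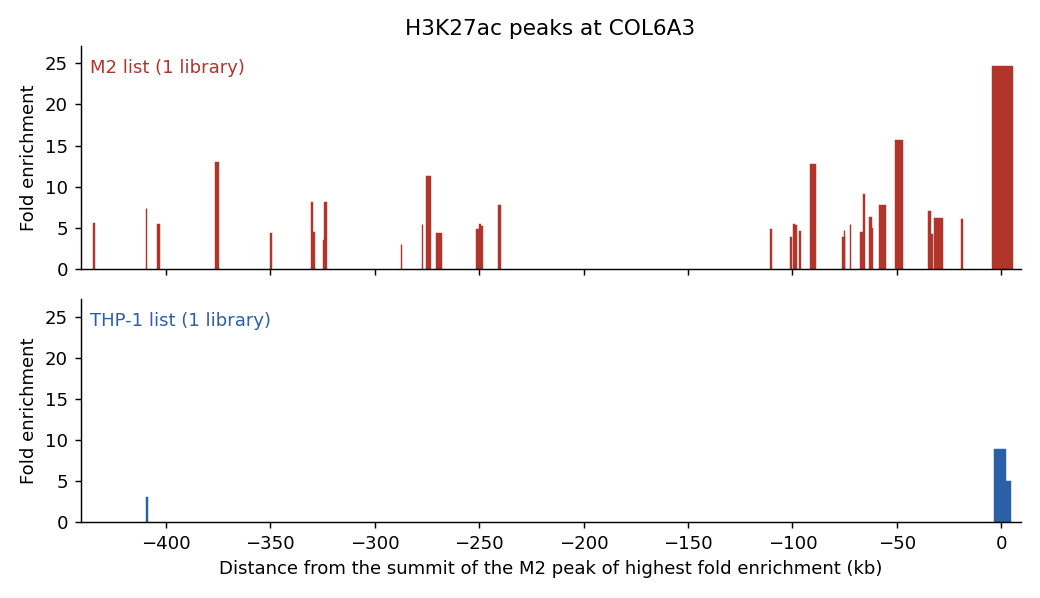
Fold enrichment of each H3K27ac peak (y axis) over the COL6A3 window, with the M2 list above and the THP-1 list below. The x axis is the distance in kb from the summit of the M2 peak of highest fold. Bar widths are peak widths, and each list is scaled to its own background. The 37 M2 peaks stand on both sides of a 129.5 kb stretch without a peak, and the 3 THP-1 peaks lie near the ends of the window.

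Below that stretch 17 M2 peaks covered 14.9 kb, and above it 20 covered 30.2 kb. The lower side was led by peaks at 238064253 to 238065918 (13.0-fold, 76 fragments) and at 238165249 to 238167497 (11.3-fold, 39 fragments), both M2-only. Median fold enrichment was 5.49 below the stretch and 5.40 above it, and the 2 peaks of highest fold in the window stood above it. M2-only peaks at 238349076 to 238351460 (12.7-fold, 51 fragments) and 238390034 to 238393054 (15.7-fold, 223 fragments, 3021 bp) stood 85993 and 44399 bp from the nearest called THP-1 site. The 15.7-fold peak belonged to a group of 9 peaks from 238364661 to 238393054, which covered 10.1 kb in M2 cells and held no THP-1 peak. Of the M2 groups, 474 held at least 9 peaks. The second widest peak of the window spanned 3881 bp at 238408385 to 238412265 with 6.20-fold enrichment.

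The peak of highest fold enrichment in the COL6A3 window, also its widest, was present in both cell types. In M2 cells it was a single peak of 9331 bp (238436525 to 238445855) with 24.7-fold enrichment and 181 fragments over the summit. In THP-1 cells the same place held peaks of 5006 bp (8.86-fold, 86 fragments) and 2126 bp (4.98-fold, 31 fragments). The M2 summit and that of the wider THP-1 peak lay 65 bp apart, and the pileup over the lowest background was 78.6 in M2 and 48.7 in THP-1, a ratio of 1.61. The M2 peak ranked above 99.7% of its list by fold, and the wider THP-1 peak above 97.2% of its own. The M2 peak made up 20.7% of the M2 sequence in the window, and the other 36 M2 peaks covered 35.7 kb. By fragments over the summit it was not the highest. The M2-only peaks at 238390034 to 238393054 (223 fragments) and 238382180 to 238385108 (201 fragments) stood above it.

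The remaining shared site was weak in both lists. The M2 peak there had 447 bp at 238031064 to 238031510 (7.35-fold, 25 fragments) and the THP-1 peak 345 bp at 238031257 to 238031601 (3.11-fold, 19 fragments), with 254 bp common to both. Relative to the lowest background the pileup was 10.9 in M2 and 10.8 in THP-1, a ratio of 1.01, while the local background was 1.03 times the lowest in M2 and 3.07 times in THP-1. The shared sites differed in pileup by 1.01 to 1.78 times between M2 and the strongest THP-1 peak at each, less than the fold enrichments did at 2 of the 3.

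By fold enrichment most members were of ordinary height for their list. The median fold enrichment of the 51 M2 members was 5.50, against 5.42 in the whole M2 list, and 28 lay above the list median. Their median width was 623 bp, against 743 bp in the list, and the median fragments over the summit were 28 against 39. By fragments 17 of the 51 lay above the list median, and by -log10 q 20 did. In the highest decile of the M2 list stood 6 of the 51 members by fold, 9 by width and 4 by fragments. Of all 56420 M2 peaks that decile held 5642 by fold, 5648 by width and 5708 by fragments. Local background at the members had a median of 1.74 times the lowest, against 2.41 over the list. The 4 THP-1 members ranged from 3.11 to 8.86-fold and from 19 to 86 fragments, against list medians of 3.67 and 40.

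**Figure D3:**
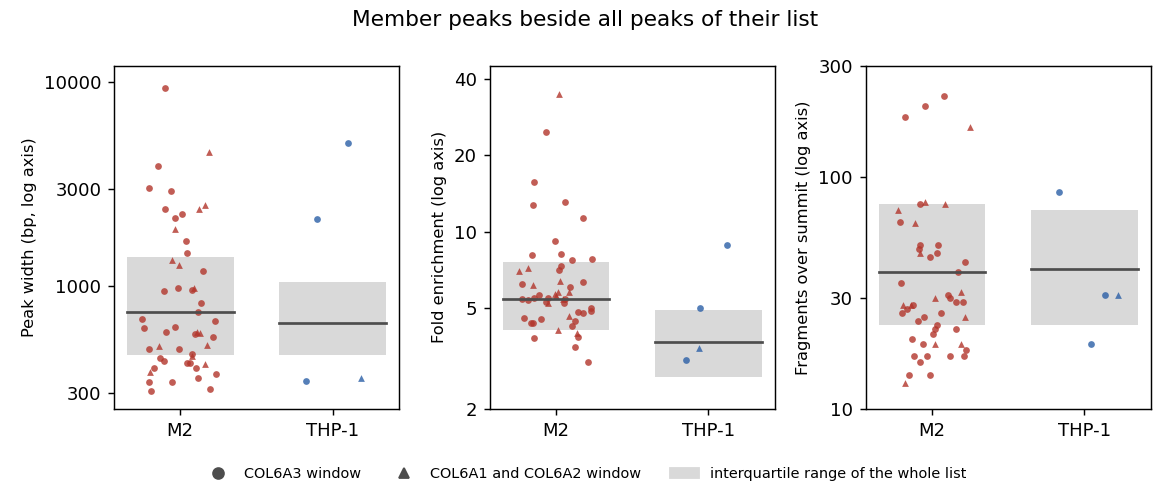
Width in bp, fold enrichment and recovered fragments over the summit (y axes, log scale) of each peak in the collagen VI windows, 51 for M2 and 4 for THP-1; grey bars are the interquartile range of the whole list, dark lines its median, and sideways position within a group is arbitrary. The M2 members reach from 13 to 223 fragments, and their median lies within the grey bar in each panel.

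How far THP-1 depth allowed such sites to be called can be given only in part. Of the 48 M2-only members, 44 had a pileup over the lowest background of at least 7.37, the fifth percentile of called THP-1 peaks. Among all 35520 M2-only peaks, 30746 did, so the members were not unusual in this. The THP-1 median of 22.7 was reached by 8 of the 48 members (16.7%, against 27.1% of all M2-only peaks). A THP-1 site with the pileup of the weaker members could have been missed. The THP-1 background at these places is not known, since no peak was called there.

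Just outside the windows, peaks were not uniformly M2-only. An M2-only peak of 5.98-fold lay 4497 bp below the COL6A3 window and another of 5.51-fold 30274 bp above it. The M2 peaks nearest to the COL6A1 and COL6A2 window, 120285 bp below (9.99-fold) and 23859 bp above it (6.15-fold), both had THP-1 counterparts. Those THP-1 peaks reached 8.56 and 5.86-fold.

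Windows of genes that make, bind or sense collagen VI were read as well. The list held 18 genes, each with a window set around it, and in M2 cells 16 of them had a peak, and 11 did in THP-1 cells. The M2 list is the longer one. In lists of equal length, 12 of these windows had M2 peaks and 11 had THP-1 peaks. In the full lists, covered sequence per window had a median of 2.23 kb in M2, against 0.492 kb in THP-1. In lists of equal length the median was 1.62 kb in M2, against 0.492 kb in THP-1. Over the whole lists M2 covered 2.19 times the THP-1 sequence, and 1.70 times at equal length. In kilobases the receptors led the list. ANTXR1, an anthrax toxin receptor that binds collagen VI, had 22.2 kb in M2, against 3.35 kb in THP-1, and its relative ANTXR2 had 9.93 kb in M2, against 2.20 kb in THP-1. CSPG4, the NG2 proteoglycan and a collagen VI receptor, had 10.7 kb in M2, against 3.65 kb in THP-1. ITGB1, the beta 1 chain of the collagen-binding integrins, had 5.69 kb in M2, against 1.51 kb in THP-1. The windows differed in length, from 30 to 260 kb. As a share of the window, M2 sequence was 21.45% at CSPG4, 8.87% at ANTXR1, 7.1% at ITGB1 and 5.23% at ANTXR2. By that share PLOD3 (10.7%) stood above all windows of the list but CSPG4, and PLOD1 (6.54%) and SERPINH1 (6.19%) stood above ANTXR2.

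The remaining genes of the list had fewer kilobases of M2 sequence in peaks than ANTXR1, ANTXR2, CSPG4 and ITGB1. The windows of COL6A5 and COL6A6, the genes of alternative collagen VI chains, held 1.02 and 1.88 kb in M2 and no THP-1 peak. Peaks were also called in M2 alone for P4HA2, a prolyl hydroxylase subunit (0.99 kb), ITGA2, an integrin collagen receptor chain (0.723 kb), and MATN2, a matrilin of the collagen VI network (2.09 kb). In lists of equal length COL6A5, COL6A6 and ITGA2 had no M2 peak either. SERPINH1, the collagen chaperone HSP47, had 1.86 kb in M2, against 2.05 kb in THP-1, and FBN1, the microfibril protein fibrillin, had 0.506 kb in M2, against 0.829 kb in THP-1. Both orders turned at a -log10 q of at least 10, where SERPINH1 had 1.86 kb in M2, against 0.877 kb in THP-1, and FBN1 0.506 kb in M2 and no THP-1 peak. No peak was called in either list for BGN and DCN, the small proteoglycans biglycan and decorin that bind collagen VI.

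Markers of the labelled cells and of other cell types were read in the same way, since collagen VI is chiefly a mesenchymal product. All 13 myeloid windows held a peak in M2 cells, from 0.838 to 13.6 kb each, and 10 did in THP-1 cells, from 0 to 10.2 kb. CD163, CYBB and MSR1, a haemoglobin scavenger receptor, an oxidase subunit and a macrophage scavenger receptor, had no THP-1 peak. CD33 had 0.838 kb in M2, against 0.992 kb in THP-1. At a -log10 q of at least 10 and in lists of equal length CD33 had no M2 peak, which left 12 windows with one. In lists of equal length 11 windows had more M2 sequence and 2 more THP-1 sequence, CD33 and LAPTM5 (2.02 kb in M2, against 2.03 kb in THP-1). The most covered, in kilobases and not as a share of the window, were CSF1R (13.6 kb in M2, against 4.95 kb in THP-1) and SPI1 (13.0 kb in M2, against 10.2 kb in THP-1). PTPRC (11.8 kb in M2, against 9.15 kb in THP-1) and TYROBP (10.9 kb in M2, against 2.47 kb in THP-1) followed.

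Of 15 mesenchymal marker windows, 10 had M2 peaks and 3 had THP-1 peaks, with a sum of 30.6 kb in M2, against 8.48 kb in THP-1. The range per window was 0 to 11.5 kb in M2 and 0 to 4.16 kb in THP-1. COL1A2, COL3A1, THY1, LOX and CDH11 had no peak in either list. PDGFRB, which adjoins the myeloid gene CSF1R, had 11.5 kb in M2, against 4.16 kb in THP-1. TWIST1 had 4.21 kb in M2, against 3.92 kb in THP-1, an order that turned at a -log10 q of at least 10 (2.38 kb in M2, against 3.24 kb in THP-1) and in lists of equal length (2.38 kb in M2, against 3.92 kb in THP-1). SNAI2 had 1.44 kb in M2, against 0.399 kb in THP-1. Peaks in M2 alone were called for FAP (3.91 kb), LUM (2.93 kb), COL1A1 (2.04 kb), PDGFRA (1.73 kb), PRRX1 (1.25 kb), CDH2 (0.835 kb) and FN1 (0.757 kb), of which CDH2 and FN1 had none in lists of equal length. The part of cells of another type in the M2 peaks at collagen VI was not tested. Epithelial and prostate windows held a peak in 5 of 7 cases in each list, with sums of 17.4 kb in M2, against 9.68 kb in THP-1 and none at EPCAM or KLK3, and lymphoid windows in 4 of 4 in M2 and 1 of 4 in THP-1 cells.

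**Figure D4:**
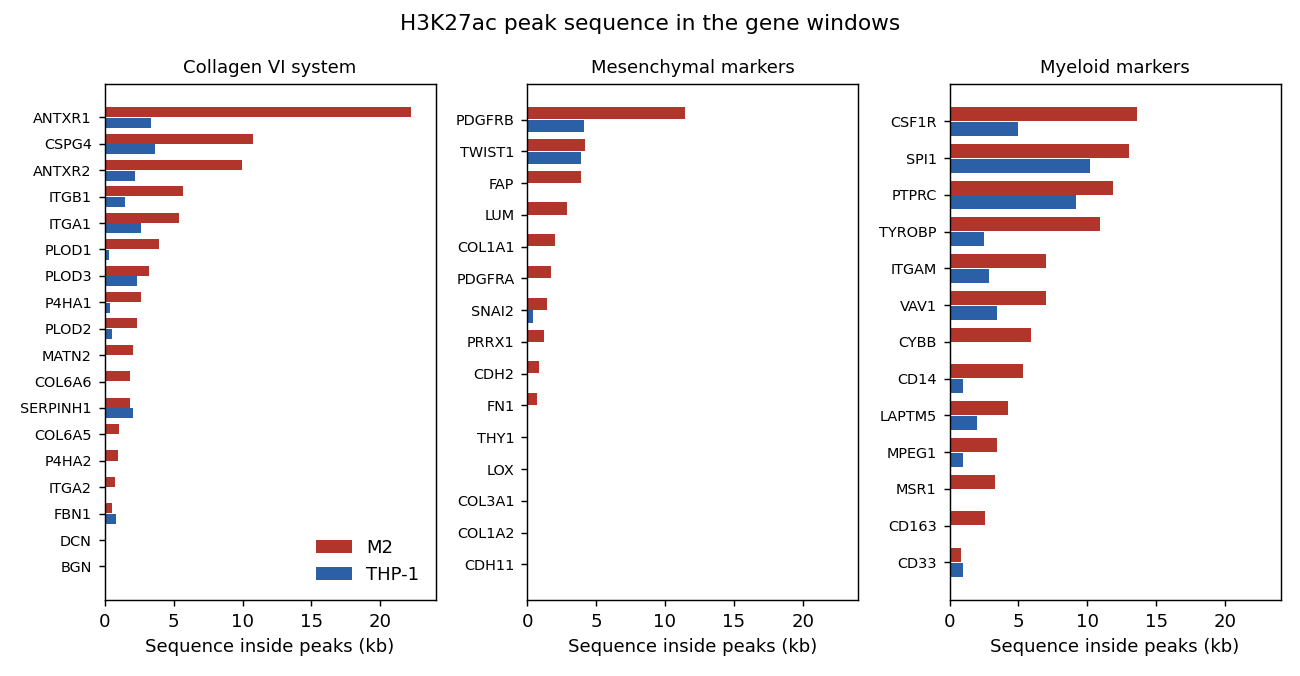
Kilobases of sequence inside H3K27ac peaks (x axis, from 0) in the window of each named gene, for the collagen VI system, mesenchymal markers and myeloid markers, with M2 above THP-1 for each gene. ANTXR1 has the longest M2 bar (22.2 kb), every myeloid window has an M2 bar, and COL1A2, COL3A1, THY1, LOX and CDH11 have no bar.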

How the data were processed

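Reads were aligned with Bowtie2 to hg19 and peaks called with MACS2 version 2.1.0, per the submitters' processing notes, without stated settings. The deposited lists, 1 per cell type, carry no header and were read in narrowPeak order. Fold enrichment is a ratio over local background as the authors' peak caller gave it. Both -log10 values, of p and of q, were also deposited by the authors, with a lowest -log10 q of 1.31 in the M2 and 1.30 in the THP-1 list. The score deposited by the authors was not used. Read depth is not given, and the Y chromosome was left out.

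Peaks sharing at least 1 bp were counted as shared. Fragments over a summit and background were solved from fold enrichment and p, with a pileup scale of 0.842 for M2 and 1 for THP-1. A single solution was found for 99.96% of the M2 list and 99.98% of the THP-1 list, and the steps were checked on simulated data. Python 3.11.15, numpy 2.4.6, pandas 2.3.3 and scipy 1.17.1 were used.

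Member windows, genes and lists were chosen with earlier results of these data known. The bounds around each collagen VI gene and the other 57 gene windows were set from general knowledge of hg19, rounded to 10 kb, and not from an annotation. All 57 lie on the chromosome RefSeq gives, and 54 are at least as long as the gene (not COL6A6, PDGFRB and KRT8). Peaks were named if among the 5 of highest fold or 3 widest of a window and list, and genes if without a peak or among the 4 most covered of their list. Further peaks and genes beside these were named after their values were seen.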

Additional observations from a re-analysis of the deposited data

How the results depend on the processing

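No paired analysis was possible because each group has 1 library. The results were recomputed with other settings, which gave 60 values, and 46 of them stayed within 1.5 times the first value or inside its interval. Not all of the 46 were free to move. Lists of equal length keep every THP-1 peak, so THP-1 covered sequence and window counts there were unchanged by construction. High percentiles cannot rise 1.5 times, and the THP-1 share of 0% was judged against an interval of 0 to 60.2%. The M2 share was judged against its interval of 83.8 to 98.8%, which treats neighbouring peaks as independent. For M2 members, the share without a THP-1 counterpart was 94.1% when peaks within 1000 bp counted as shared (56.8% over the list). It was 96.1% when 50% of the peak had to be covered (74.5%). It was 96.3% at a -log10 q of at least 10 (74.2%) and 86.4% in lists of 31444 peaks each (51.0%).

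Other values moved further, and by the alternatives' own construction most of these rest on fewer peaks or narrower bounds. The threshold of 10 in -log10 q left 27 M2 and 2 THP-1 members, and the COL6A1 and COL6A2 window held 0 kb of THP-1 sequence, above 0% of its tiles. At the same threshold peaks were left in 7 windows of the collagen VI list and 3 epithelial windows in THP-1 cells, and in 2 lymphoid windows in M2 and 0 in THP-1 cells. In lists of equal length 3 epithelial and 2 lymphoid windows held an M2 peak. Within the bounds of the COL6A3 gene itself the covered sequence was 0 kb for M2 and 0 kb for THP-1. Joining peaks within 20000 bp left 6 M2 groups in the COL6A3 window, against 11, and within 5000 bp it gave 7 in the COL6A1 and COL6A2 window, against 3. Peak lists hold only called sites, so weaker acetylation below the threshold is not seen in either cell type.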
